A study of Mus musculus with 12 samples.

Results

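The genes described here are 81 long intergenic noncoding RNAs (lincRNAs) measured in mouse cDC1, the class of conventional dendritic cells best known for showing antigens of dead cells to CD8 T cells. They were chosen by their level: every gene that the GENCODE M21 annotation types as lincRNA and that reached a mean of at least 5 CPM (counts scaled by the total of each library) over all 12 libraries. The deposited tables cover 53458 genes, of which 5383 are lincRNA genes, and 2365 of those had a count in any library. The cells came from the inguinal lymph nodes of mice that carried a subcutaneous KPC tumor or none, and that had received an agonist of the receptor CD40 or not. KPC is the usual name of a mouse model of pancreatic cancer, and CD40 is a surface receptor that helper T cells engage to switch dendritic cells on. The 4 groups are NoTumor-NoCD40 (no tumor, no agonist), NoTumor-CD40 (agonist alone), Tumor-NoCD40 (tumor alone) and Tumor-CD40 (tumor and agonist), with 3 libraries each, numbered 1 to 3. Strain, age, dose, time and sorting gate are not in the labels, nor is it stated that libraries within a group are from different mice. The p-values therefore measure the spread between these libraries, which may be technical.

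LincRNAs are transcribed from stretches of the genome between protein-coding genes and, like messenger RNAs, are mostly made by RNA polymerase II, capped and often spliced. Some act in the nucleus, as Malat1 and Neat1 do in speckles and paraspeckles and Xist does on the inactive X chromosome, and some are mainly carriers of small RNAs that are cut from their introns or exons. Many others have no known function, and in immune cells a part of them is switched on together with inflammatory genes in their vicinity.

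The libraries held between 22855143 and 27163393 expected counts, and the 81 lincRNAs together took 0.451% to 0.823% of them. All 81 had a count in every library except Gm45090, which was at 0 in NoTumor-CD40 library 3. The summed level of 12 cDC1 markers (Xcr1, Clec9a, Irf8, Batf3 and others) was 7660 to 10600 CPM in NoTumor-NoCD40, 3270 to 8670 in NoTumor-CD40, 2650 to 12000 in Tumor-NoCD40 and 4490 to 5920 in Tumor-CD40, and none of the 12 was at 0 in any group. The 10 B cell markers summed to 29.1 to 106 CPM, 78.1 to 246, 57.1 to 154 and 714 to 2040 in the same order. In bulk RNA, fewer cells of a kind and less RNA per cell cannot be told apart.

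With the CD40 agonist, 8 of the 81 lincRNAs rose and 1 fell when its effect was averaged over mice with and without tumor. The 8 were Gm17767, Slmapos2, Gm12840, Gm48942, 9330175E14Rik, Gm47662, Gm26809 and AC160336.1, and the 1 that fell was AI504432. None of the 9 has a function that can be stated here with certainty. The 9 are 11.1% of the lincRNAs, beside 2.51% of all 18095 genes tested that passed in this comparison (2.17% higher, 0.343% lower) and 3.57% of the 10230 genes that reached the same 5 CPM. A gene passed with an adjusted p under 0.05 by edgeR (quasi-likelihood F test, p-values adjusted by Benjamini-Hochberg over every tested gene). The median log2 fold change of the 81 was 0.04, beside -0.03 for all genes, and 43 were above 0 and 38 below, so the 81 were spread about evenly around 0. Of the 81, 8 had a mean normalized CPM under 5 in NoTumor-NoCD40 and were included through their other groups. Gm17767 and Gm47662 are among them, so part of their difference was needed for them to be counted at all.

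**Figure D1:**
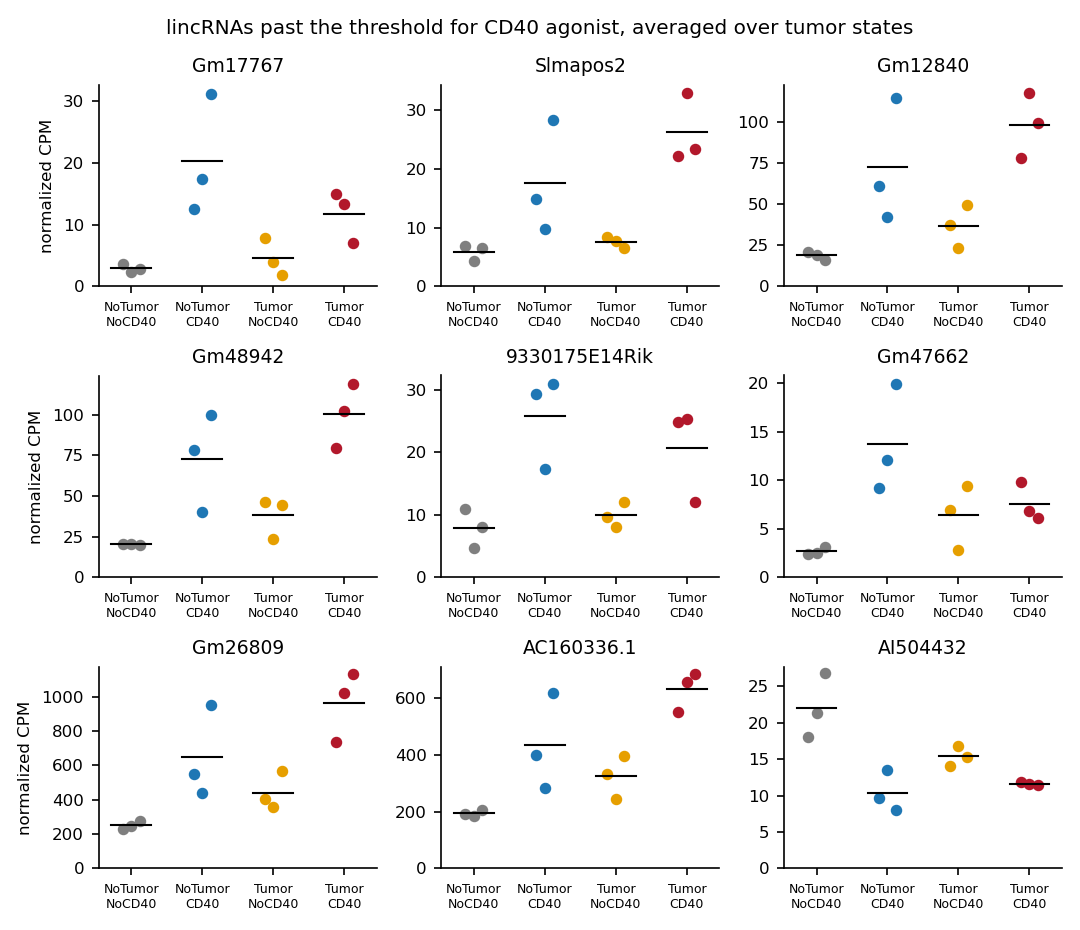
Normalized CPM (linear axes from 0) of the 9 lincRNAs past the threshold for the CD40 agonist averaged over tumor states, by group, with 1 point per library and a line at the mean of the 3 libraries. In 8 panels the agonist groups lie above the matching group without agonist on average, as for Gm48942 (19.8 to 20.6 against 40.0 to 100 without tumor), and in the panel of AI504432 they lie below.

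Gm48942 is a spliced RNA of chromosome 14 (91638499-91647839, minus strand, GRCm38) whose nearest coding gene, Pcdh9, lies 1365571 bases away. Its level was 20.2, 20.6 and 19.8 CPM in the libraries of NoTumor-NoCD40, 78.1, 40.0 and 100 in NoTumor-CD40, 46.1, 23.6 and 44.5 in Tumor-NoCD40, and 79.4, 102 and 119 in Tumor-CD40. The groups with and without agonist did not overlap in either tumor state, and the 3 libraries without tumor or agonist were the lowest of all 12. The log2 fold change averaged over tumor states was 1.62 ± 0.22 (SE; adjusted p = 0.00162 in edgeR's quasi-likelihood test), the lowest p of the 81.

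Slmapos2 (chromosome 14, 26389199-26395521, plus strand) is named for Slmap, a gene of a tail-anchored membrane protein that lies on the other strand 17647 bases downstream. It was measured at 6.89, 4.26 and 6.44 CPM in NoTumor-NoCD40, 14.8, 9.82 and 28.3 in NoTumor-CD40, 8.39, 7.72 and 6.54 in Tumor-NoCD40, and 22.2, 32.9 and 23.4 in Tumor-CD40. Every library with agonist was above every library without it. The averaged log2 fold change was 1.69 ± 0.25 (SE; adjusted p = 0.00283 in edgeR's test).

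Gm17767 (chromosome 1, 51507086-51596718, minus strand) had the largest fold of the 9. Its CPM was 3.56, 2.38 and 2.87 in NoTumor-NoCD40, 12.5, 17.3 and 31.2 in NoTumor-CD40, 7.85, 3.88 and 1.78 in Tumor-NoCD40, and 15, 13.3 and 7.06 in Tumor-CD40. The groups were apart without tumor and overlapped with tumor, where Tumor-CD40 library 3 lay below Tumor-NoCD40 library 1. The averaged log2 fold change was 2.10 ± 0.35 (SE; adjusted p = 0.00518 in edgeR's test).

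9330175E14Rik (chromosome 8, 94422898-94435103, minus strand) overlaps the gene of Nlrc5, an activator of MHC class I genes, on the opposite strand. Its CPM was 10.9, 4.72 and 7.99 in NoTumor-NoCD40, 29.4, 17.3 and 31.0 in NoTumor-CD40, 9.59, 8.06 and 12.1 in Tumor-NoCD40, and 24.9, 25.4 and 12 in Tumor-CD40. Only Tumor-CD40 library 3 fell within the range of its control group. The averaged log2 fold change was 1.39 ± 0.25 (SE; adjusted p = 0.00927 in edgeR's test).

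Gm47662 (chromosome 13, 32997062-33001750, plus strand) lies just upstream of Serpinb9, the gene of an inhibitor of granzyme B, on the same strand. Its CPM was 2.41, 2.53 and 3.12 in NoTumor-NoCD40, 9.21, 12.1 and 19.9 in NoTumor-CD40, 6.90, 2.82 and 9.45 in Tumor-NoCD40, and 9.78, 6.85 and 6.10 in Tumor-CD40. Without tumor the groups did not overlap, and with tumor they did. The averaged log2 fold change was 1.30 ± 0.31 (SE; adjusted p = 0.0423 in edgeR's test). It passed in only 4 of the 12 fits that left out 1 library, with adjusted p from 0.0211 to 0.12.

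AI504432 (chromosome 3, 107039504-107054347, plus strand), the only 1 of the 9 that fell, lies 1434 bases beyond the end of Kcna3, a voltage-gated potassium channel gene. It stood at 18, 21.3 and 26.8 CPM in NoTumor-NoCD40, 9.66, 13.5 and 7.97 in NoTumor-CD40, 14.1, 16.8 and 15.3 in Tumor-NoCD40, and 11.9, 11.6 and 11.4 in Tumor-CD40. All 6 libraries with agonist were below all 6 without it. The averaged log2 fold change was -0.74 ± 0.17 (SE; adjusted p = 0.0347 in edgeR's test), and it passed in 3 of the 12 fits that left out 1 library (adjusted p 0.012 to 0.113).

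The sequence across the first splice junction is given for these 5 spliced lincRNAs because under 10% of each main transcript has a near-identical copy in another annotated transcript, so that few of its reads can be shared with another RNA at that identity. Near-identical means at least 95% identity over at least 50 bases. The end of the first exon is in lower case and the start of the second exon in capitals, 60 bases each (30 for the short first exon of Gm47662), from GENCODE M21 on GRCm38, 5′ to 3′ along the transcript. The last base of exon 1 and the first base of exon 2 are at 26389379 and 26393509 for Slmapos2 (chromosome 14), at 51512240 and 51510044 for Gm17767 (chromosome 1), at 94434026 and 94427902 for 9330175E14Rik (chromosome 8), at 32997091 and 32998220 for Gm47662 (chromosome 13), and at 107039570 and 107048846 for AI504432 (chromosome 3).
Slmapos2: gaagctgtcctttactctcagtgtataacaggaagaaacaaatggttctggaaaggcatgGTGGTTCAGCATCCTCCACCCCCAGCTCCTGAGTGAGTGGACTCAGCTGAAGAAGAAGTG
Gm17767: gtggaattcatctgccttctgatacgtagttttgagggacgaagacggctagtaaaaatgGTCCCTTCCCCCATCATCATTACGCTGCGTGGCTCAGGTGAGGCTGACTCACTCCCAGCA
9330175E14Rik: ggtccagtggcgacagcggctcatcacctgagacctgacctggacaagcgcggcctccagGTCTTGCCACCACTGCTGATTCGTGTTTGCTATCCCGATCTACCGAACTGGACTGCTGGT
Gm47662: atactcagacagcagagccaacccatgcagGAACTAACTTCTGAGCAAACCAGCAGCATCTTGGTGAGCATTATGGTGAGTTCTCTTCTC
AI504432: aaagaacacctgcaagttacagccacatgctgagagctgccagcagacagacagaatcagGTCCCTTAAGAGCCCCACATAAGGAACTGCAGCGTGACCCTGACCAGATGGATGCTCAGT

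The other 3 lincRNAs that rose, Gm26809, Gm12840 and AC160336.1, share sequence. Gm26809 (chromosome 6, 18844220-18847360, plus strand) was at 231, 244 and 276 CPM in NoTumor-NoCD40, 547, 441 and 951 in NoTumor-CD40, 403, 355 and 565 in Tumor-NoCD40, and 736, 1020 and 1130 in Tumor-CD40. The groups with and without agonist did not overlap in either tumor state, and the averaged log2 fold change was 1.25 ± 0.19 (SE; adjusted p = 0.00352 in edgeR's test). Gm12840 (chromosome 4, 117700188-117700923, plus strand) was at 20.8, 19.3 and 16.3 CPM, then 61.3, 42.4 and 115, then 37.4, 23.3 and 49.6, and then 78.0, 118 and 99.5 in the same order of groups. It followed the same pattern without overlap, with an averaged log2 fold change of 1.69 ± 0.24 (SE; adjusted p = 0.00204 in edgeR's test). AC160336.1 (chromosome 14, 44544055-44637201, minus strand), annotated as 1 unspliced exon of 93147 bases, was at 193, 185 and 205 CPM, 400, 284 and 618, 332, 243 and 396, and 552, 655 and 686. Its agonist group lay above the control group with tumor, and without tumor, and its averaged log2 fold change was 1.06 ± 0.18 (SE; adjusted p = 0.00525 in edgeR's test).

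All of the Gm12840 transcript has a near-identical copy in Gm26809, in the opposite direction, with 97.1% identity over the longest run of 513 bases. Of Gm26809, 39.5% has such a copy in AC160336.1, also in the opposite direction, with 95% identity over 1184 bases. Over all annotated genes, 80.7% of Gm26809 has near-identical copies, in 5 other genes. For AC160336.1 it is 29.1%, spread over 745 other genes. The short lincRNA Gm29408 (216 bases) is held whole in Gm26809 at 98.1% identity, and its averaged log2 fold change was 0.75 ± 0.25 (adjusted p = 0.144 in edgeR's test). Slmapos2 is a more distant relative: at a minimum of 80% identity over 100 bases, 30.9% of it matched AC160336.1 (84.8% identity over the longest run of 561 bases). Of the 9 lincRNAs past the threshold, 4 are thus linked to each other by sequence and 5 are not. This does not cover matches outside the 9. Gm48942, among the 5, has near-identical copies over 24.5% of its main transcript, in 8 genes (15.4% in Gm45551). Whether reads were shared between Gm26809, Gm12840, AC160336.1 and Gm29408, or between these and other genes, was not tested. At 95% identity, the match of Gm29408 to Gm26809 is the only 1 among these 4 on the same strand. At the minimum of 80%, 73.2% of Gm12840 also matched AC160336.1 on the same strand (92.5% identity over the longest run of 467 bases). The match of Slmapos2 to AC160336.1 is on the same strand too. The strand setting of the counting is not given, so these 4 may not be independent of each other. Together they took 0.0432% to 0.0537% of all counts in NoTumor-NoCD40, 0.0762% to 0.168% in NoTumor-CD40, 0.0616% to 0.108% in Tumor-NoCD40 and 0.138% to 0.207% in Tumor-CD40, which is again higher with agonist in each tumor state and without overlap.

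Interferon-induced genes rose in the same comparison, and are given as a known response beside the lincRNAs. The 10 genes of that list (Isg15, Ifit1, Irf7 and others) summed to 250 to 309 CPM in NoTumor-NoCD40, 660 to 1000 in NoTumor-CD40, 195 to 323 in Tumor-NoCD40 and 576 to 779 in Tumor-CD40, and 10 of 10 passed the threshold in the averaged comparison. Of the 10 genes of mature dendritic cells (Ccr7, Fscn1, Ccl22 and others), 3 passed, with sums of 4790 to 12800, 12500 to 29300, 5650 to 22200 and 11100 to 14200 CPM. Markers of other cell types rose in the averaged comparison too. The most were in 3 lists: 7 of 10 B cell markers, 3 of 6 markers of plasmacytoid dendritic cells (pDC) and 2 of 3 tested neutrophil markers. The pDC markers summed to 157 to 230 CPM in NoTumor-NoCD40, 283 to 539 in NoTumor-CD40, 187 to 236 in Tumor-NoCD40 and 486 to 623 in Tumor-CD40, without overlap between agonist and control in either tumor state. The 3 that rose were Spib, Ly6d and Bst2, while Siglech, a defining pDC marker, had a mean of 2.11 CPM and an averaged log2 fold change of -0.52 (adjusted p = 0.665 in edgeR's test). The neutrophil markers summed to 0.287 to 2.37, 1.53 to 22.8, 1.34 to 3.31 and 3.01 to 21.6 CPM in the same order, with Ly6g at 0 in NoTumor-CD40. The part of any of these in the lincRNA changes was not tested.

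Without tumor, 8 lincRNAs rose with the agonist and 1 fell, and these were the 9 genes of the averaged comparison. They are 11.1% of the 81, beside 1.44% of all genes tested (1.36% higher and 0.0829% lower) and 2.35% of the genes that reached 5 CPM. The same limits apply: Gm17767 and Gm47662, at means of 2.94 and 2.69 CPM in NoTumor-NoCD40, were included through their other groups. Gm26809, Gm12840 and AC160336.1 share sequence and may not be independent. The folds were 6.91 for Gm17767, 5.13 for Gm47662, 3.87 for Gm12840, 3.60 for Gm48942, 3.29 for 9330175E14Rik, 3.01 for Slmapos2, 2.58 for Gm26809 and 2.23 for AC160336.1, and 0.472 for AI504432. Adjusted p-values ran from 0.0141 for Gm48942 to 0.0499 for Slmapos2 (edgeR's quasi-likelihood test). The median log2 fold change of the 81 was 0.27, beside -0.04 for all genes, with 52 above 0. The lincRNAs next in rank that fell without passing were Gm46430 (log2 fold change -0.72), 2310040G24Rik (-1.27) and Gpr141b (-1.11, adjusted p = 0.322 in edgeR's test). This count rests on few libraries: it was 0 without NoTumor-NoCD40 library 2 or 3 or without NoTumor-CD40 library 3, and 3 to 5 without NoTumor-NoCD40 library 1, NoTumor-CD40 library 1, Tumor-NoCD40 library 1 or Tumor-CD40 library 1. The averaged count stayed between 7 and 9 in the 12 such fits. With the date-like prefix of the library titles as a block in the model, the count without tumor was 1 (Gm26809), and the averaged count was 8, with Gm47662 and AI504432 no longer past the threshold and 1 other lincRNA past it. NoTumor-NoCD40 library 3 has a prefix of its own, so the block takes up that library whole and it adds nothing to these comparisons. This fit therefore cannot separate an effect of the prefix from the loss of a control library.

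With tumor, Slmapos2 was the 1 lincRNA past the threshold, with a fold of 3.47 (log2 fold change 1.80 ± 0.35, adjusted p = 0.0324 in edgeR's test). That is 1.23% of the 81, beside 0.685% of all genes (0.641% higher) and 0.831% of the genes that reached 5 CPM. Gm48942 (log2 fold change 1.40, adjusted p = 0.0561), Gm12840 (1.42, 0.0744) and Gm26809 (1.12, 0.0901) came next in edgeR's test and missed the threshold. The lowest p-values in the other direction belonged to 1810058I24Rik (-0.75, adjusted p = 0.144 in edgeR's test), 2310001H17Rik (-1.27), Gm26778 (-1.21) and Gm13994 (-1.13). 1810058I24Rik was at 97.9, 64.7 and 79.2 CPM in Tumor-NoCD40 and at 45.3, 52.7 and 45.7 in Tumor-CD40, without overlap. The median log2 fold change of the 81 was 0.01. In the same comparison 8 of 10 B cell markers rose and none was at 0 in any group. Whether B cell RNA has a part in the value of Slmapos2 was not tested. The call of Slmapos2 was lost without NoTumor-NoCD40 library 2 or 3, NoTumor-CD40 library 1, Tumor-NoCD40 library 1 or 3, or Tumor-CD40 library 1, 2 or 3, at adjusted p of 0.0506 to 0.131 in edgeR's test. The count was 2 without Tumor-NoCD40 library 2, 3 without NoTumor-CD40 library 2 and 5 without NoTumor-CD40 library 3.

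**Figure D2:**
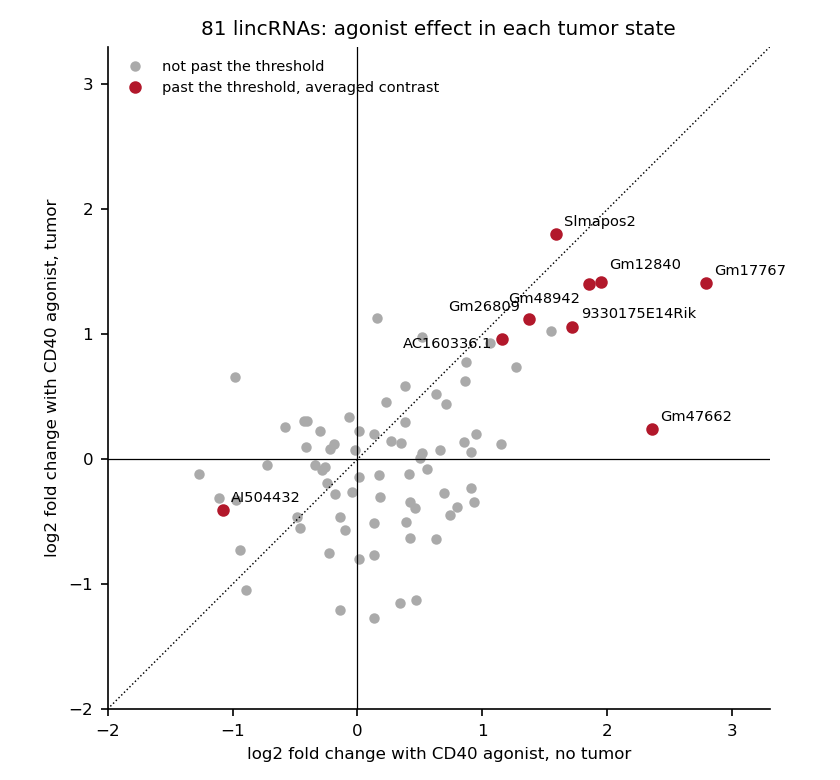
Log2 fold change with the CD40 agonist without tumor (x axis) and with tumor (y axis) for the 81 lincRNAs, 1 point each, with the 9 that passed the averaged comparison in red and a dotted line of equal change. The red points lie in the upper right, apart from AI504432 at -1.08 and -0.41, and Gm47662 lies far below the dotted line at 2.36 and 0.24.

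The difference between the agonist effects with and without tumor was tested as an interaction, and 0 of the 81 lincRNAs passed, as did 0% of all genes. With unadjusted p under 0.05 there were 6 lincRNAs, or 7.41%, beside 9.8% of all genes, and DESeq2 also called 0 lincRNAs. The lowest p was that of Gm47662, whose agonist effect was 2.12 ± 0.62 (SE) lower on the log2 scale with tumor than without (log2 difference -2.12, adjusted p = 0.495 in edgeR's test). Then came 2310001H17Rik (-1.40), Gm43042 (-1.27) and Gm13994 (-1.60), and on the other side Gm16211 (0.97), AI504432 (0.68), Gm46430 (0.67) and Gm28901 (0.71). That 9 lincRNAs passed without tumor and 1 with tumor therefore does not show a difference between the tumor states.

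The tumor itself changed no lincRNA past the threshold in edgeR's test. Without agonist, 0 of 81 passed (0% of all genes), 10 of 81 (12.3%) had an unadjusted p under 0.05 beside 5.82% of all genes, and the lowest adjusted p was 0.775. The 10 include lincRNAs that share sequence and may not be independent. The leading values were those of the sequence-sharing lincRNAs and Gm48942: Gm26809 (log2 fold change 0.82), AC160336.1 (0.73), Gm48942 (0.92) and Gm12840 (0.97) upward, and Gm16211 (-1.05), Gm29562 (-0.91), AI504432 (-0.51) and 2310040G24Rik (-1.25) downward. With agonist, 0 of 81 passed beside 0.199% of all genes, and 8 (9.88%) had an unadjusted p under 0.05 beside 9.32% of all genes. The lowest adjusted p was 0.286, for Gm26905 (-0.94), a 6621-base RNA of which 99.6% has near copies, followed by Gm13994 (-1.63), 2310001H17Rik (-1.0) and A530010L16Rik (-0.90). Upward, AC160336.1 (0.54), Gm26809 (0.57), Slmapos2 (0.57) and Gm29408 (0.55) had the lowest p. DESeq2 also called 0 lincRNAs in both tumor comparisons. In the tumor comparison with agonist, 58 of the 81 lay below 0 (median -0.20, beside -0.01 for all genes). Without agonist 35 did (median 0.06, beside -0.01 for all genes).

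The nearest protein-coding genes were read for the lincRNAs past the threshold. Serpinb9, which begins 1500 bases beyond Gm47662 on the same strand, stood at 388, 308 and 209 CPM in NoTumor-NoCD40, 1350, 753 and 1570 in NoTumor-CD40, 578, 283 and 597 in Tumor-NoCD40, and 757, 739 and 554 in Tumor-CD40. Like Gm47662 it was apart without tumor and overlapped with tumor. Its log2 fold change was 2.02 ± 0.33 (SE; adjusted p = 0.0111 in edgeR's test) without tumor and 0.49 ± 0.32 (adjusted p = 0.678) with tumor, beside 2.36 and 0.24 for Gm47662, whose CPM was 1.13% of that of Serpinb9. Nabp1, a single-stranded DNA-binding protein gene 28661 bases downstream of Gm17767 on the same strand, was at 221, 203 and 240 CPM in NoTumor-NoCD40, 654, 582 and 637 in NoTumor-CD40, 274, 238 and 237 in Tumor-NoCD40, and 507, 645 and 346 in Tumor-CD40. It rose in both tumor states without overlap, by 1.5 ± 0.20 (adjusted p = 0.00366 in edgeR's test) and 1.0 ± 0.20 (adjusted p = 0.0363), where Gm17767 had 2.79 and 1.41.

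The other neighbours that could be tested did not pass the threshold. Pcdh9, the nearest to Gm48942, and Gm5624, which overlaps AC160336.1, had no counts and were not tested. The averaged log2 fold change was 0.44 ± 0.14 for Nlrc5 (adjusted p = 0.132 in edgeR's test), 0.38 ± 0.12 for Slmap (adjusted p = 0.116), -0.81 ± 0.41 for Kcna3 (adjusted p = 0.324), 0.19 ± 0.21 for Dmap1 beside Gm12840 and -0.07 ± 0.14 for Lsm8, an RNA-binding protein gene 1219 bases from Gm26809. Lsm8 stayed between 20.5 and 30.9 CPM in all 12 libraries while Gm26809 ranged from 231 to 1130. Kcna3 was low, at 6.10 ± 1.31 CPM in NoTumor-NoCD40 and 3.21 ± 2.76 in NoTumor-CD40 (SD, n = 3). Over the 60 of 81 pairs in which the nearest coding gene was also tested, 40 had the same sign of change without tumor (Pearson's r = 0.44 and Spearman's rho = 0.45 across genes) and 37 with tumor (r = 0.25, rho = 0.41). Genes are not independent replicates, and a lincRNA and its neighbour share the same libraries.

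**Figure D3:**
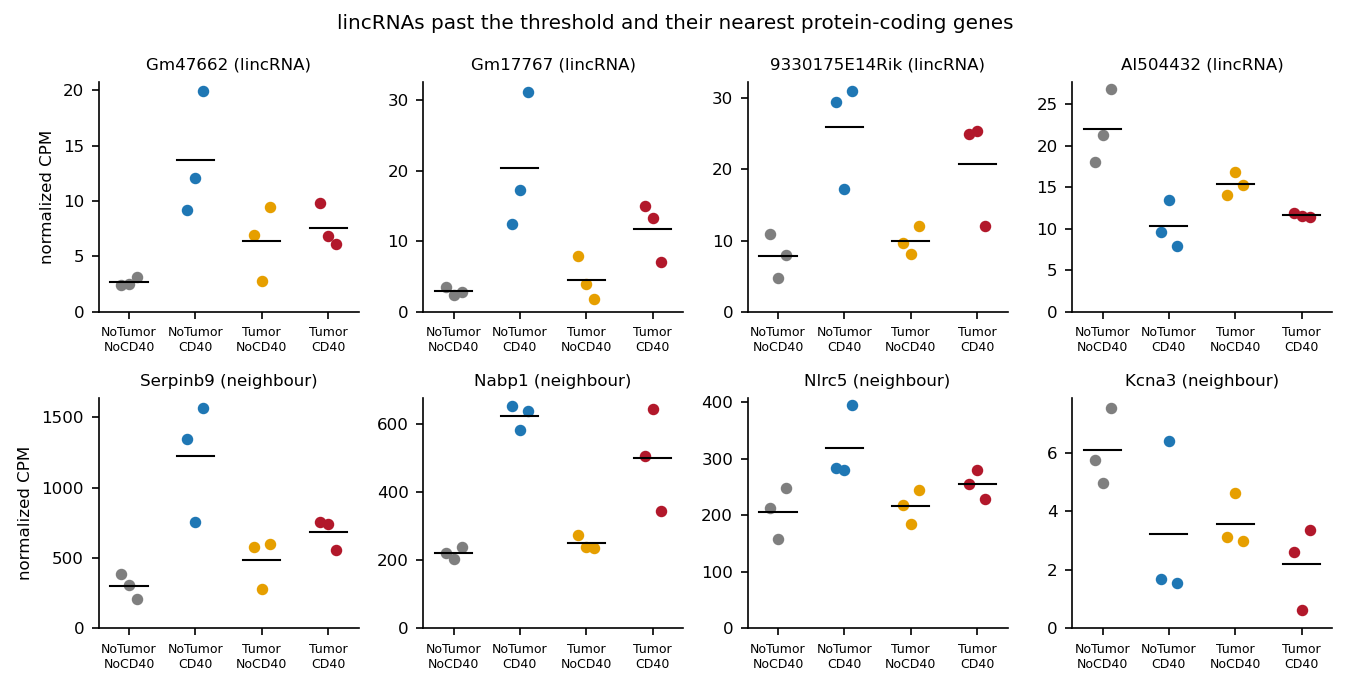
Normalized CPM (linear axes from 0) of 4 lincRNAs past the threshold (upper row) and of the nearest protein-coding gene of each (lower row), by group, 1 point per library with a line at the mean. Serpinb9 and Nabp1 rise with agonist without tumor as Gm47662 and Gm17767 do, from 302 to 1220 and from 221 to 624 on average.

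The list of lincRNAs and other genes known from immune cells held 22 tested genes, of which 4 passed in the averaged comparison, all higher, 2 without tumor and 1 with tumor. Over all genes tested, 2.51%, 1.44% and 0.685% passed in the same order. The list was chosen with earlier results of these data known, and not all of its genes are noncoding RNAs. Only 2 of the list are among the 81: 9330175E14Rik, described above, and AW112010, a transcript that has been described as inflammation-induced in lymphoid and myeloid cells and as the source of a short protein. A530040E14Rik, annotated as antisense to another gene and so outside the 81, rose without tumor by 1.69 on the log2 scale (adjusted p = 0.0151 in edgeR's test). The remaining genes that passed, Gm12250 (averaged log2 fold change 1.54) and Gm4951 (2.26), are typed as a pseudogene and a protein-coding gene in GENCODE M21. AW112010 was at 466, 280 and 155 CPM in NoTumor-NoCD40, 575, 375 and 766 in NoTumor-CD40, 551, 167 and 673 in Tumor-NoCD40, and 396, 375 and 324 in Tumor-CD40. All groups overlapped, and the log2 fold changes with agonist were 0.93 ± 0.45 (adjusted p = 0.284 in edgeR's test) without tumor and -0.34 ± 0.44 (adjusted p = 0.875) with tumor. Mir155hg, the host of the inflammatory miR-155, had a mean of 1.83 CPM, too low for the 81, and log2 fold changes of 1.41 and 1.30 that did not pass.

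None of the nuclear lincRNAs on the list, 7 of which were tested, passed in any of the 6 comparisons. Malat1, which held 22.5% of all counts of the 81, ranged from 690 to 1700 CPM in NoTumor-NoCD40, 1460 to 2190 in NoTumor-CD40, 914 to 1860 in Tumor-NoCD40 and 1120 to 1950 in Tumor-CD40, with an averaged log2 fold change of 0.28 ± 0.24 (adjusted p = 0.567 in edgeR's test). Neat1, the scaffold of paraspeckles, was at 152, 133 and 195 CPM in NoTumor-NoCD40, 257, 201 and 441 in NoTumor-CD40, 231, 107 and 263 in Tumor-NoCD40, and 259, 200 and 167 in Tumor-CD40. Its groups were apart without tumor and overlapped with tumor, and neither log2 fold change passed (0.91 ± 0.33 with adjusted p = 0.183 in edgeR's test, and 0.06 ± 0.33 with adjusted p = 0.977). Xist, the RNA that silences an X chromosome in female cells, was at 200 to 548 CPM over the 12 libraries, with an averaged log2 fold change of -0.16 ± 0.22 (adjusted p = 0.752 in edgeR's test).

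Host RNAs of small RNAs did not change past the threshold either. Of 17 tested hosts of small nucleolar RNAs (snoRNAs, guides of RNA modification), 0 passed in any of the 6 comparisons by edgeR. The 3 among the 81 had averaged log2 fold changes of 0.36 for Snhg12 (adjusted p = 0.471 in edgeR's test), 0.17 for Snhg6 (adjusted p = 0.69) and -0.04 for Epb41l4aos (adjusted p = 0.947). Of 5 tested host genes of microRNAs 0 passed, and the 1 among the 81 is Mir142hg, the host of miR-142, a microRNA found in nearly all blood cells. Mir142hg was at 4.48, 5.91 and 7.91 CPM in NoTumor-NoCD40, 5.76, 5.10 and 5.71 in NoTumor-CD40, 10.9, 4.10 and 4.87 in Tumor-NoCD40, and 5.32, 4 and 4.95 in Tumor-CD40. The groups overlapped, and its averaged log2 fold change was -0.30 ± 0.28 (adjusted p = 0.613 in edgeR's test). These libraries of long RNA do not measure the microRNA. Its mature forms lie on chromosome 11 (87756867-87756887 and 87756903-87756925, plus strand, GRCm38.p6, RefSeq) and are shown, with the seed (bases 2 to 8) in capitals, as the known products of this host.
mmu-miR-142a-5p: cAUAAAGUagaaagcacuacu
mmu-miR-142a-3p: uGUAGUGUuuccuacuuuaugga

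Per unit of length, in TPM (counts scaled by transcript length and library), the most abundant of the 81 were AW112010 (mean of 623 TPM over the 12 libraries, range 234 to 1300), Gm48275 (562), Gm29408 (361), AY036118 (275), Malat1 (161), Gm10076 (145), Gm26809 (119), Mir142hg (113), Gm49207 (106), Gm42418 (104), Gm28901 (93.4) and Gm12840 (85.9). The order does not separate neighbours: AW112010 (234 to 1300) and Gm48275 (349 to 1110) overlapped in range, as did Malat1 (63.9 to 290) and Gm10076 (91.3 to 213). Gm48275, Gm29408, Mir142hg and Gm49207 have main transcripts under 300 bases, for which TPM is raised strongly by the short length: Gm29408 with 361 TPM had a mean of 7.49 CPM. Of the 12, 8 have near copies over at least 90% of the main transcript. Gm10076 matches the ribosomal protein gene Rpl41 (100%), Gm28901 the splicing factor gene Hnrnpf (100%) and Gm49207 the Hsp90 co-chaperone gene Ahsa1 (96.1%). The others are Gm48275 (Gm42428), Gm29408 and Gm12840 (both Gm26809), AY036118 (Gm42418) and Gm42418 (CT010467.1), each at 100%. How reads were divided between such copies was not tested. In all, 23 of the 81 had a near-identical copy over at least 90% of the main transcript and 33 over under 10%, and 10 of the 81 had a mean of at least 100 TPM and 42 under 10.

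**Figure D4:**
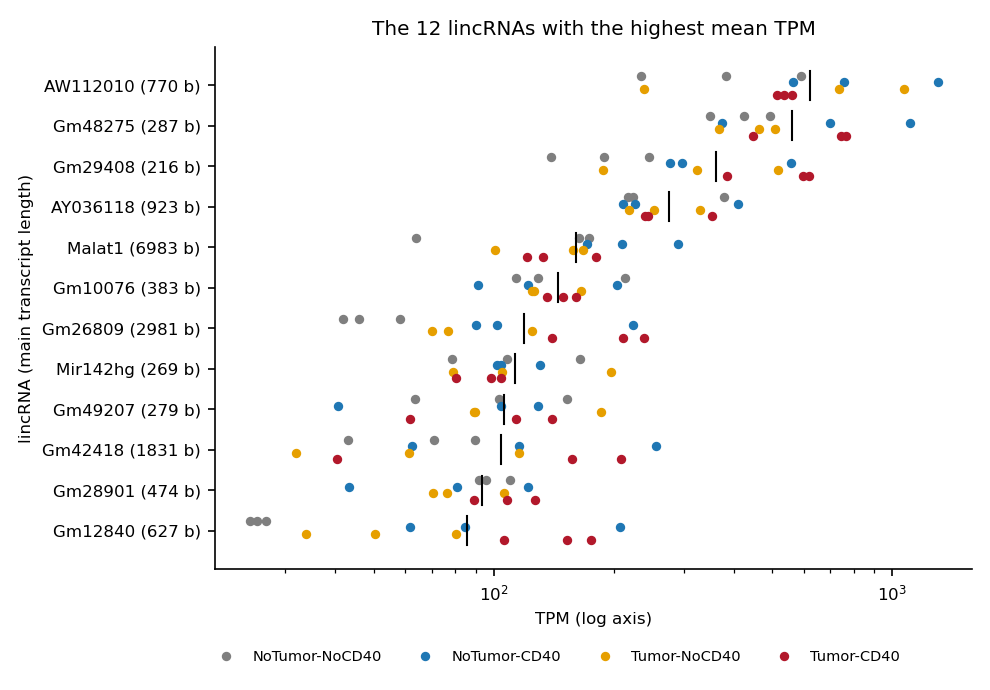
TPM (log axis) of the 12 lincRNAs with the highest mean TPM, with the length of the main transcript in bases (b), 1 point per library colored by group and a black bar at the mean of all 12 libraries. AW112010 spreads from 234 to 1300 TPM, and for Gm26809 and Gm12840 the 3 points of NoTumor-NoCD40 lie below the other 9. Among these 9, Tumor-CD40 lies above Tumor-NoCD40 for both genes (140 to 238 against 69.8 to 125 TPM for Gm26809), and NoTumor-CD40 overlaps with both groups.

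The median within-group SD of log2 CPM was 0.51 for the 81, 0.30 for all 10230 genes that reached 5 CPM and 0.55 for all genes tested. These sets were not matched on level, and only 53 of the 81 reach 10 CPM. The steadiest were 2900097C17Rik (0.15), 1700020I14Rik (0.19), Gm17275 (0.23), 1810058I24Rik (0.24) and AI504432 (0.25), the gene that fell with agonist. The most variable were Gm45090 (2.09), 1700009J07Rik (1.48), Gm26669 (1.46), Gm26917 (1.28) and 2310040G24Rik (1.22). Of these, Gm26917 was listed with its neighbours on chromosome 17, Gm42418 and AY036118, as related to ribosomal RNA. Gm42418 lies opposite the annotated ribosomal RNA CT010467.1 over 99.5% of its exon length, and AY036118 lies opposite Gm42418. For Gm26917 no near copy or opposite exon was found in the annotation. AY036118 was at 604 to 764 CPM in library 1 of the 4 groups, 326 to 404 in library 2 and 300 to 350 in library 3. The titles give library 1 of every group the same date-like prefix and library 2 another, and library 3 of NoTumor-NoCD40 has a prefix of its own, and the 4 libraries of the first prefix were the highest for AY036118, with or without tumor and agonist. Gm42418 was likewise at 116 to 218 CPM in library 3 of the groups, below the 347 to 1240 of library 1 and the 263 to 644 of library 2. None of these 3 passed the threshold in any of the 6 comparisons.

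**Figure D5:**
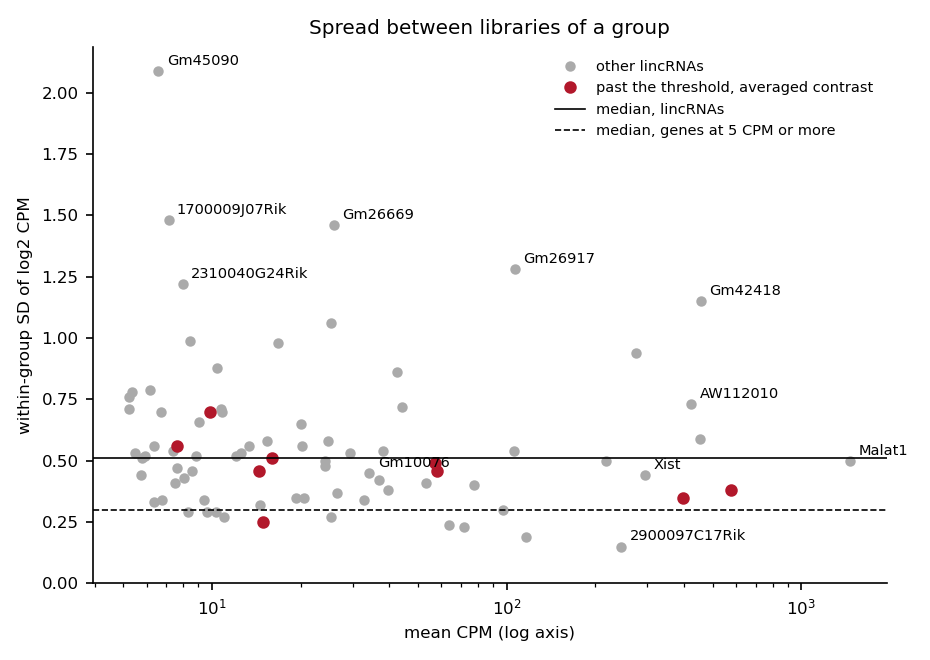
Within-group SD of log2 CPM (y axis) against mean CPM (x axis, log) for the 81 lincRNAs, 1 point each, with the 9 past the threshold in red and lines at the medians of the 81 (0.51, solid) and of all genes at 5 CPM or more (0.30, dashed). Gm45090 lies highest at 2.09, and Gm42418 has an SD of 1.15 in spite of its high level.

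Gpr141b, which is typed as a lincRNA in GENCODE M21 though named for a receptor gene, had a wide spread. It was at 358, 448 and 462 CPM in NoTumor-NoCD40, 168, 360 and 60.8 in NoTumor-CD40, 204, 511 and 88.0 in Tumor-NoCD40, and 180, 301 and 167 in Tumor-CD40. The 2 lowest libraries, NoTumor-CD40 library 3 and Tumor-NoCD40 library 3, were also those with the lowest cDC1 marker sums (3270 and 2650 CPM) and the highest sums of mature dendritic cell genes (29300 and 22200 CPM). The highest, Tumor-NoCD40 library 2, had the highest cDC1 marker sum (12000 CPM). Its averaged log2 fold change with agonist was -0.71 ± 0.41 (adjusted p = 0.385 in edgeR's test). AW112010 went the other way, with its highest values (766 and 673 CPM) in the libraries where Gpr141b was lowest. These values were set side by side after they were seen, and no relation was tested.

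Some lincRNAs are spread over several annotated transcripts, whose shares rest on few distinguishing bases and on the authors' estimation. Of 9330175E14Rik, the 1207-base form took 82.6% to 83.3% of the counts in NoTumor-CD40 and 50.8% to 78.7% in NoTumor-NoCD40, without overlap, and 78.2% to 87.5% in Tumor-CD40 and 54.3% to 80.3% in Tumor-NoCD40, with overlap. The long form of Neat1 (20771 bases), which carries the paraspeckle, took 8.81% to 10.2% in Tumor-CD40, below the 11.7% to 16.9% of the other groups' libraries. In Dubr, a lincRNA of 12.1 CPM, the 2052-base transcript took 22.3% to 54.1% in the 6 libraries without tumor and was listed at 0 in the 6 with tumor. The 2105-base transcript took 25.0% to 67.3% with tumor and was listed at 0 in 5 of the 6 libraries without it. As a whole Dubr did not differ by tumor past the threshold. The transcripts of Neat1 and Dubr were picked after their values were seen, and shares were not tested.

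The threshold of 5 CPM lies within a continuous range of levels: 278 lincRNAs reached 1 CPM, 164 reached 2, 53 reached 10 and 13 reached 100. Just below it were Gm38399 (4.72), Gm16973 (4.84) and Gm20465 (4.96 CPM), and just above it Gm13994 (5.24), Gm49207 (5.24) and Gm9530 (5.35 CPM). The 81 lie on 20 chromosomes, 18 have a main transcript of 1 exon, and 21 overlap a protein-coding gene. In 11, at least 50% of the exon length lies opposite exons of another gene, as Gm26778 opposite Kctd12, and the strand setting of the counting is not given in the sources used here. Of the 9 past the threshold none is among these 11. RefSeq promoter windows (250 bases before to 50 after a start) were found for 33 of the 81, with the window's start within 50 bases of that of the main transcript for 20. The 33 had 36 windows, in which 4 motifs were searched on either strand. A kappa B motif (GGANNTTCC) was in 4 of the 36, beside 4.26% of all 32851 windows. These belong to AW112010, 9330175E14Rik, 2310001H17Rik and 4833407H14Rik. An interferon response motif (AAANNGAAA) was in 5 of the 36, beside 10.6%. These belong to Gpr141b, Gm36161, Gm35279 and 2310001H17Rik. A GAS motif (TTCNNNGAA) was in 3 of the 36, beside 8.3%, and an AP-1 motif (TGANTCA) in 1, beside 7.81%. The windows of 9330175E14Rik, 2310001H17Rik and Gm35279 start over 50 bases from the main transcript's start, and a match describes letters only.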

How the data were processed

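RNA-seq was deposited for 12 mouse cDC1 libraries, 3 in each of 4 groups. Per the labels' protocols, the RNA kit was Qiagen RNeasy Plus Micro and the library kit, which keeps strand, NEBNext Ultra II Directional. The submitters' processing notes name Salmon and mm10. The version, the annotation release and the strand setting are not given in the sources used here. The authors deposited expected counts per transcript, not normalized, which summed to between 22855143 and 27163393 per library, and TPM per transcript, also deposited by the authors.

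Of 136288 transcripts, 136176 were assigned to 53458 genes with GENCODE M21. The other 112, with 0.0279% to 0.0457% of the counts, were left out. Counts were summed per gene and rounded. The 81 members are lincRNA genes whose CPM by total count averaged 5 or more. Members and gene lists were chosen with earlier results of these data known.

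The main test was edgeR 4.0.16 in R 4.3.3: TMM normalization (factors 0.935 to 1.074), filterByExpr (a minimum count of 10 and total of 15), passed by 18095 genes and all 81 members, 1 model of 4 groups (8 residual degrees of freedom), two-sided quasi-likelihood F tests without legacy dispersions, and Benjamini-Hochberg adjustment over all genes with a threshold of 0.05. The 6 contrasts were the agonist without tumor, with tumor and averaged over both, the tumor without and with agonist, and the interaction. CPM of libraries and groups in the text is TMM-normalized. CPM by total count is used for the 5 CPM rule and the levels around it, and for the counts of genes reaching a level. It is also used for the means of Gm29408 and Dubr and the x axis of the spread figure. SE is the absolute log2 fold change divided by the square root of F. The code was tested on simulated data. Near copies were searched with BLAST 2.17.0 (at least 95% identity over 50 bases) in the GENCODE transcripts. The search at 80% over 100 bases was added after the values were seen.

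Named genes are the 12 with the highest mean TPM, those past the threshold in any contrast, the 4 per direction with the lowest p in each contrast, members of the gene lists, those next to 5 CPM and those with the largest or smallest spread. Gpr141b beside cell state, Dubr and the transcript shares were chosen after their values were seen. Alternatives were RLE normalization, DESeq2 1.42.0, no filter, legacy dispersions, limma 3.58.1 on log2(TPM + 1) and log2(TPM + 0.1), leaving out rRNA related and mitochondrial genes, the title prefix as a block, each library left out, and members from 10 or 2 CPM.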

Additional observations from a re-analysis of the deposited data

How the results depend on the processing

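No change of sign was seen for the 19 gene values past the threshold under any of 20 alternatives each: 261 of the 380 passed and 119 did not. In the averaged agonist comparison Gm48942, Gm12840, Slmapos2, 9330175E14Rik and Gm17767 passed in all 20, Gm26809 in 19, AC160336.1 in 18, Gm47662 in 9 and AI504432 in 8. The count of 9 there became 5 by limma on log2(TPM + 1) and was 7 to 9 when 1 library was left out. Without tumor the count of 9 became 0 by limma on log2(TPM + 1) and on log2(TPM + 0.1), and was 0 to 10 when 1 library was left out. With tumor the count of 1 became 5 by DESeq2, 4 without the filter, 0 with legacy dispersions and 0 by limma with either pseudocount, and was 0 to 5 when 1 library was left out. The cause of these shifts was not tested. Over all genes tested, the count was 261 without tumor, against 923 by DESeq2, 401 without the filter, 31 and 29 by limma and 48 with the block below. With tumor it was 124, against 314, 200, 29 and 21, and 229 in that order, and 61 with legacy dispersions. The averaged count of 454 became 954 by DESeq2 and 133 and 149 by limma. For the tumor with agonist the 36 became 161 by DESeq2, 89 without the filter, 0 with legacy dispersions, 12 and 6 by limma and 83 with the block. DESeq2 called 24 genes for the tumor without agonist and 16 for the interaction, where edgeR called 0. Where a fit leaves a group with 2 libraries, they are assumed to vary like the other groups. The other counts, under RLE normalization, without rRNA related and mitochondrial genes and with members from 10 or 2 CPM, stayed within 1.5 times, and both tumor comparisons and the interaction gave 0 lincRNAs in every alternative.

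With the title prefix as a replicate block the count without tumor became 1, that with tumor 5 and the averaged count 8. NoTumor-NoCD40 library 3 is alone in its prefix, so in this fit it adds nothing to any comparison that uses its group. The change in those counts cannot be assigned to the prefix alone. The labels do not say what the prefix marks. Deviations from the group means correlated at 0.00358 to 0.228 (median 0.0629) between libraries of the same prefix (15 pairs, 3 over 0.1). Between libraries of different prefix the range was -0.19 to 0.0877 (median -0.0292, 39 pairs, 0 over 0.1). Libraries of the same prefix were thus more alike by the median, though weakly. Deviations within a group sum to 0, so higher values for same-prefix pairs push those of different-prefix pairs down. The different-prefix pairs are therefore not an independent baseline. The main model left the prefix out. Whether the prefix marks a batch or a pairing was not tested. With 3 libraries a group and counts of under 10 CPM for many members, changes smaller than their spread were not detectable at this depth.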
